A study of Rattus norvegicus with 43 samples.

Results

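Heat shock proteins of the cytosol and of the mitochondrial matrix were followed in rat liver and in rat primary hepatocytes (RPH) from isolation to 48 h of culture. The set holds 10 genes: Hspa1a, Hspa8, Hspb1, Hspb8, Cryab, Hsph1, Dnajb1, Hsp90aa1, Hspd1 and Hspe1. Each gene was represented by a probe set (a group of short probes for 1 transcript) that lists it alone, and of several the one with the highest mean log2 signal was taken. Of the 10 genes, 8 have such a probe set, among 14217 genes on the array that do. All 8 passed a filter on low values, which asked for a signal above the median of the array in at least 5 of the 43 arrays and kept 10649 genes for testing. Cryab was above the median in 32 arrays, Hspa1a in 40 and the other 6 genes in all 43. Hspa8 and Hsp90aa1 are measured here by probe sets that also list another gene, so no value is given for either as a gene.

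Heat shock proteins are chaperones, which bind proteins that are unfolded or only partly folded and keep them from clumping. The HSP70 proteins work in cycles of ATP hydrolysis set going by HSP40 partners and reset by nucleotide exchange factors, the small heat shock proteins hold unfolded proteins without ATP, and the mitochondrial chaperonin folds proteins inside a closed chamber. Many of these genes are switched on by heat shock factor 1 when unfolded proteins build up, and several are also made at a high level in unstressed liver, where protein synthesis is intense.

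The samples came from 3 Sprague Dawley males that each gave 1 untreated sample to each of 5 groups, and whose age the labels do not give. Liver was a lobe ligated ahead of the perfusion, the 0 h group was the pellet of freshly isolated cells, and the 4 h, 24 h and 48 h groups were cells on collagen-coated plates. The medium was William's E with insulin, transferrin and dexamethasone, with serum up to 4 h and without it afterwards. RNA was hybridized to Affymetrix RG230-2 arrays, and the deposited values are linear MAS5 signals (an estimate of the brightness of a probe set, in arbitrary units). Every array of a rat and group is a technical repeat of 1 sample, so these were averaged on the log2 scale and n = 3 rats per group throughout. Group means below are means of log2 signals turned back to signals, and their SD is on the log2 scale.

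Differences were tested with limma in 1 fit over the 15 samples, and a gene is said to have risen or fallen at a Benjamini-Hochberg adjusted p under 0.05 over the 10649 genes. With 3 rats on each side, the smallest p an exact permutation test could give is 0.1. Of 14 listed hepatocyte markers 13 are measured, and all 13 were above the array median in every sample, while their summed signal went from 364251 to 400284 in liver to 194593 to 214962 at 48 h. Summed markers of sinusoidal endothelium went from 16202 to 20032 in liver to 631 to 1294 at 48 h, and those of Kupffer cells from 23540 to 30046 to 2185 to 4766. Liver and pellet are bulk samples, in which fewer cells of a type and less RNA per cell cannot be told apart. The 3'/5' signal ratio of the beta-actin controls, a sign of RNA integrity, was 3.21 to 6.96 in liver, 3.16 to 4.30 at 0 h, 2.85 to 3.12 at 4 h, 2.23 to 2.50 at 24 h and 1.95 to 2.46 at 48 h. With this ratio as a covariate, an alternative chosen after the data were seen, 14 of the 21 calls of single genes were kept. The ratio moved with the groups and was highest in the liver of rat 1, so this fit cannot fully separate it from the group.

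A pair of arrays went against their labels. The signal of Hbb, the beta chain of hemoglobin and a marker of blood, was 28566 and 30611 in arrays 1 and 2 labelled liver of rat 1 and 163 in array 3. In the arrays labelled 0 h of rat 1 it was 139 and 203 in arrays 1 and 2 and 27544 in array 3. The other liver arrays lay between 34719 and 46368 and the other 0 h arrays between 15.3 and 396. Over the probe sets past the filter, 41 of the 43 arrays were closest to an array of their own sample, and these 2 were the exceptions. The array labelled liver had a mean r of 0.947 with the other liver arrays of rat 1 and of 0.958 with the 0 h arrays of that rat, and the array labelled 0 h had 0.941 with its own sample and 0.961 with liver. No array was moved to another group. The main values keep the labels, and each result that uses liver or 0 h was also computed on the remaining 41 arrays, a choice made after the data were seen.

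**Figure D1:**
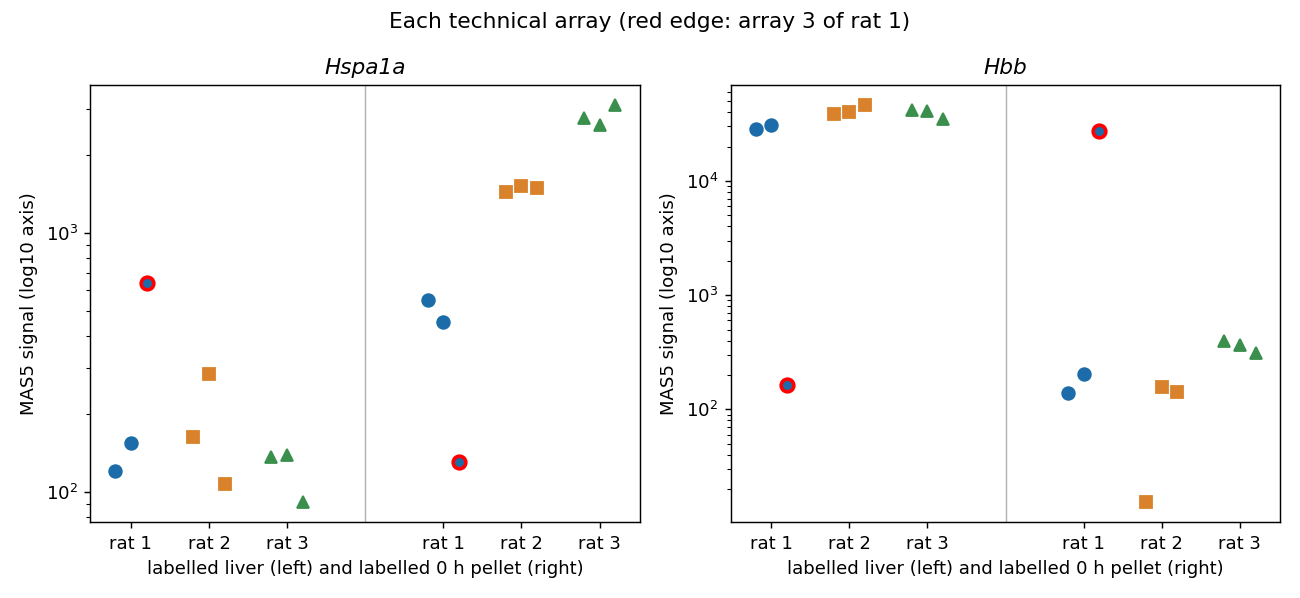
Signal of Hspa1a (left) and Hbb (right) on every technical array labelled liver or 0 h, on log10 axes, by rat, with array 3 of rat 1 ringed in red. The ringed array labelled liver has an Hbb signal of 163 and an Hspa1a signal of 642, both within the range of the other 0 h arrays. The ringed array labelled 0 h has 27544, just below the lowest of the other liver arrays (28566), and 131, within their range.

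Against liver, 1 of the 8 genes had risen at 0 h, 3 at 4 h, 5 at 24 h and 5 at 48 h. Hspa1a, the inducible HSP70, led at 0 h (6.59-fold), Hspb8 at 4 h (4.34-fold), and the crystallin Cryab at 24 h (7.76-fold) and 48 h (34.3-fold). Hspe1, the mitochondrial co-chaperonin, was the 1 gene that fell, at 24 h and 48 h, by less than any rise and not under every scaling. Dnajb1 and Hspd1, each by its brightest probe set, passed the test in no comparison with the deposited scaling.

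The counts stand against the whole array as follows. At 0 h against liver, 0.141% of all genes rose and 0.432% fell, and of the 8 genes 1 rose and 0 fell (3 had an unadjusted p under 0.05 in limma). At 4 h the shares were 16.4% up and 29.9% down, with 3 up and 0 down among the 8. At 24 h they were 23.7% up and 23.9% down, with 5 up and 1 down, and at 48 h 25.4% up and 22.6% down, again with 5 up and 1 down. The median log2 change of the 8 genes was 0.13, 0.25, 1.34 and 1.08 at 0 h, 4 h, 24 h and 48 h, and that of all genes was -0.08, -0.25, 0.00 and 0.04. These 4 comparisons share the liver samples. Without the 2 arrays the members' counts were the same except that 0 fell at 24 h, while the background rose to 0.338% up and 3.41% down at 0 h and stood at 24.4% down at 24 h.

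From one time to the next, the rises of the 8 genes numbered 2 from 0 h to 4 h, 2 from 4 h to 24 h and 1 from 24 h to 48 h, with no fall. The background was 16.3% up and 22.6% down from 0 h to 4 h, 26.3% up and 13.5% down from 4 h to 24 h, and 2.51% up and 1.77% down from 24 h to 48 h. Without the 2 arrays, 2 genes rose and 1 fell from 0 h to 4 h, against 16.4% and 22.4% of all genes. Over longer spans, 4 of the 8 passed the test at 24 h against 0 h (41.5% of all genes in either direction), 3 at 48 h against 0 h (44.1%) and 3 at 48 h against 4 h (48.4%). On the 41 arrays the counts were 4 at 24 h (41.8% of all genes) and 4 at 48 h (44.3%) against 0 h, the added call being a fall of Hspa1a by 1.18 on the log2 scale (adjusted p = 0.0441, groups overlapping). With the rat as a block on these arrays Hsph1 also rose from 0 h to 48 h (0.41, adjusted p = 0.0107, higher in all 3 rats).

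**Figure D2:**
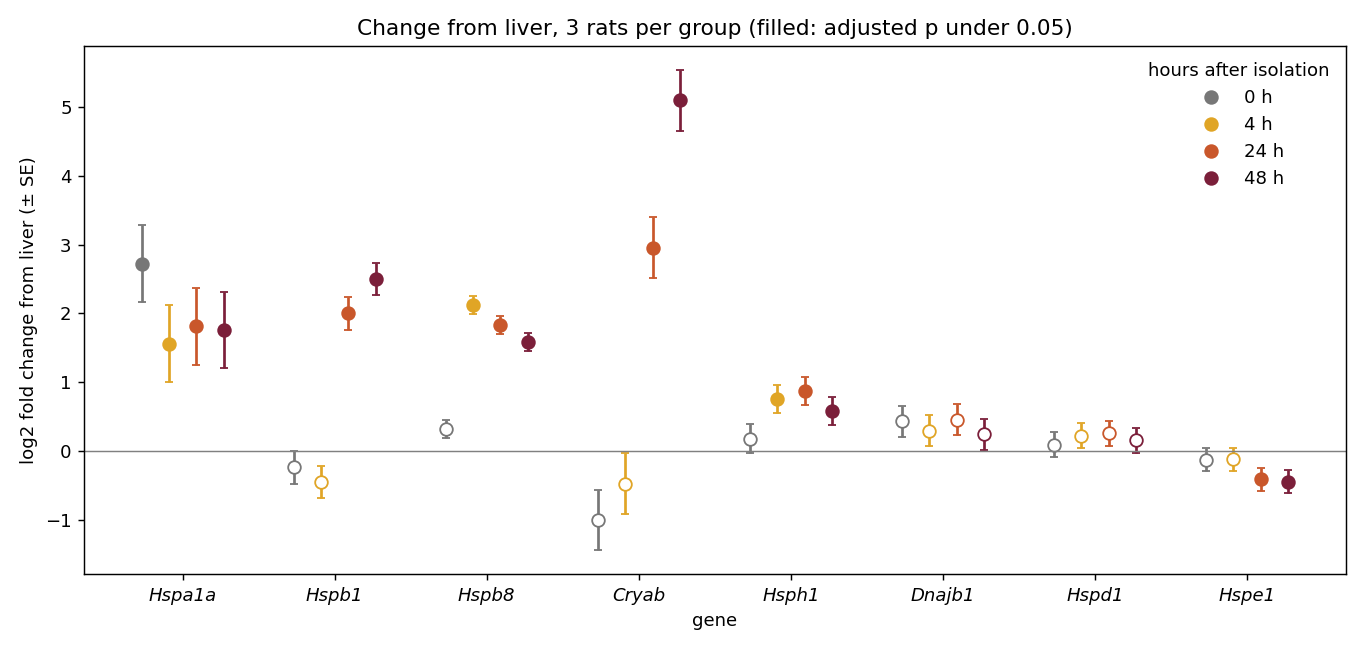
Log2 fold change from liver (vertical axis, ± SE) of each gene at 0, 4, 24 and 48 h, 3 rats per group, with filled points at an adjusted p under 0.05. Cryab reaches 5.10 at 48 h and Hspb8 2.12 at 4 h, while the points of Dnajb1 and Hspd1 are all open.

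The promoters were searched for the letters that heat shock factors bind. The heat shock element is built of 5-letter units in alternating direction, and the windows of 250 bases before to 50 after the start (RefSeq, build GRCr8) were searched for 2 adjoining units, GAANNTTC or TTCNNGAA, and for 3, GAANNTTCNNGAA or TTCNNGAANNTTC. The letters cover both strands, and a match of 3 units contains a match of 2. Of the 10 genes, 8 have a window in the table, and Cryab and Hsp90aa1 have no entry. A pair of units was found in 7 of the 8 windows, against 5305 of 33469 promoters (15.9%), and 3 units in 4 (Hspa8, Hsph1, Hspd1 and Hspe1), against 267 (0.798%). The window of Hspa1a held neither, but it is set by the annotated start, and the sequence outside the window was not searched. Hspd1 and Hspe1 lie head to head on chromosome 9, their annotated genes overlap by 6 bases and their windows share 211, so that the same matches count for both. A match is a run of letters and no evidence of binding. The stretches below run 5' to 3' on the strand of the gene, with the matches in capitals. Hspb1 (chr12:26432302-26432451, minus strand), Hspb8 (chr12:45837158-45837307, plus strand) and Hsph1 (chr12:10427218-10427367, plus strand) are shown for the 150 bases before the start, and Hspe1 (chr9:64084256-64084285, plus strand) for 30 bases around its matches, where 2 runs of 3 units overlap.
Hspb1: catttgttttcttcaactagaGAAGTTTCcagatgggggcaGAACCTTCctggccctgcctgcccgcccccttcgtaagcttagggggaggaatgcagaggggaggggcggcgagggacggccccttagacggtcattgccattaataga
Hspb8: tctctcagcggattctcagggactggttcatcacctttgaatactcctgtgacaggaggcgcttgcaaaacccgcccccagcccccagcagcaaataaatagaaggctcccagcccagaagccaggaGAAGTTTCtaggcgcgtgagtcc
Hsph1: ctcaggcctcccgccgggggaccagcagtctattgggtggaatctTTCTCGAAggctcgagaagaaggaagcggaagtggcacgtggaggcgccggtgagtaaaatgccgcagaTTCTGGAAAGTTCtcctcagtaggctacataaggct
Hspe1: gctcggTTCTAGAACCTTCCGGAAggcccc

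Hspa1a encodes the stress-inducible HSP70 of the cytosol. Its signal was 228, 170.3 and 119.7 in the livers of rats 1, 2 and 3 and 318, 1481 and 2824 in the 0 h pellets. All 3 pellets lay above all 3 livers, but the pellets were far apart, with a log2 SD of 1.62 against 0.47 in liver. At 4 h the signal was 510.3, 445 and 519.9, at 24 h 649, 514 and 602, and at 48 h 671, 624 and 429. The cultures were thus close to each other, with SDs of 0.12 to 0.35, and each lay above every liver.

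The rise of Hspa1a at 0 h was 2.72 on the log2 scale (SE 0.56, adjusted p = 0.0499), and the rats differed by 0.48, 3.12 and 4.56. With the rat as a block the adjusted p was 0.0603, so the call rests on the choice of fit. On the 41 arrays, rat 1 had signals of 136 in liver and 497 at 0 h, and the rise was 3.18 (adjusted p = 0.00135, and 0.00257 with the block). The call at 0 h was kept when the 0 h sample of rat 1 was left out and lost when any other of the 15 samples was left out, with log2 changes from 2.04 to 3.61 and adjusted p from 0.000276 to 0.249. It was kept without rat 1 (adjusted p = 0.00326) and lost without rat 2 (0.970) or rat 3 (0.589).

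Against liver, Hspa1a rose 2.94-fold at 4 h (adjusted p = 0.0355), 3.51-fold at 24 h (0.0169) and 3.38-fold at 48 h (0.0195). Each of these calls was lost without some single sample: at 4 h without the liver of rat 2 or 3 or any 4 h sample, at 24 h without the liver of rat 3, and at 48 h without the liver of rat 3 or the 48 h sample of rat 1 or 2. The adjusted p then reached at most 0.115. Each was also lost without rat 2 or rat 3 (up to 0.175 at 4 h, 0.119 at 24 h and 0.161 at 48 h), and the call at 4 h without a filter on low values (0.0515). With the actin ratio as a covariate none of the 4 calls against liver was kept (adjusted p = 0.0580 to 0.264). The later 3 were kept on the 41 arrays, where the adjusted p was 0.00465, 0.00184 and 0.00218. From 0 h to 4 h the log2 change was -1.16 (adjusted p = 0.116), and on the 41 arrays -1.38 (0.0246), with 0.04, -1.73 and -2.44 in the 3 rats and overlapping groups. Leaving out the 0 h sample of rat 1 gave -2.06 (0.000385). The technical arrays of 1 sample had an SD of 0.20 at the median for this gene and 1.30 at the most, the latter in liver of rat 1. The gene has a nearly identical neighbour, Hspa1b, so that its own share of the signal is uncertain.

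Hspb8, Hspb1 and Cryab are small heat shock proteins. Hspb8 hands misfolded proteins to autophagy together with the co-chaperone Bag3. Its signal was 2092, 1778 and 2008 in liver and 2475, 2234 and 2607 at 0 h, and it was 8283, 9365 and 7865 at 4 h. The pellets lay above the livers but the rise of 0.32 did not pass the test (adjusted p = 0.313), while the 4 h cells were well clear of both. Hspb8 rose 4.34-fold from liver to 4 h (log2 2.12 ± 0.13 SE, adjusted p = 2.13e-07) and 3.48-fold from 0 h (7.00e-07). At 24 h it was 7342, 6533 and 6936, and at 48 h 6182, 5706 and 5715, still 3.54-fold and 3.00-fold above liver (adjusted p = 2.55e-07 and 6.17e-07). The mean was highest at 4 h. The difference of -0.29 from 4 h to 24 h did not pass the test (adjusted p = 0.0868), while the fall by 0.53 on the log2 scale from 4 h to 48 h did (0.00376).

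Hspb1 encodes HSP27, which holds unfolded proteins and binds actin filaments. It was at 1217, 1197 and 1141 in liver, at 1016, 735 and 1348 at 0 h and at 801, 970.3 and 831 at 4 h. The pellets overlapped the livers and the 4 h cells lay below them, but neither difference passed the test (-0.24 at 0 h, adjusted p = 0.711, and -0.45 at 4 h, 0.131). At 24 h the signal was 4216, 5380 and 4662, and at 48 h 6978, 8980.4 and 4807. All cultures from 24 h on lay above every earlier sample. Hspb1 rose 5.47-fold from 4 h to 24 h (adjusted p = 6.33e-06), and stood 3.99-fold above liver at 24 h (2.05e-05) and 5.66-fold at 48 h (2.47e-06). The step from 24 h to 48 h was 0.50 (adjusted p = 0.328).

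Cryab encodes alpha-B-crystallin, a small heat shock protein of lens and muscle that many cells make under stress. It was low at first, with 149.7, 239.7 and 134 in liver, 123, 70.0 and 69.4 at 0 h and 155, 180.3 and 63.7 at 4 h. The pellets lay below the livers, but the differences from liver of -1.01 at 0 h (adjusted p = 0.35) and -0.48 at 4 h (0.390) did not pass the test. At 24 h it was 852, 2358 and 1118, and at 48 h 4528, 7984 and 5355. The groups at 4 h, 24 h and 48 h did not overlap. The rise was 10.8-fold from 4 h to 24 h (log2 3.43 ± 0.44 SE, adjusted p = 5.85e-05) and 4.42-fold from 24 h to 48 h (0.0149), and at 48 h the signal was 34.3-fold that of liver (1.11e-06). The step from 24 h to 48 h was lost without the 24 h sample of rat 1 or 3 or the 48 h sample of rat 2, with an adjusted p of up to 0.0771, and without rat 1 or rat 3 (up to 0.201). The SDs between rats were 0.42 to 0.81. All calls of Hspb8, Hspb1 and Cryab against liver were kept whichever sample or rat was left out.

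Markers of other cell types moved along with these genes in part. The summed signal of 15 stellate cell and fibroblast markers was 11586 to 17577 in liver on the 41 arrays, 3654 to 8033 at 0 h, 1636 to 3416 at 4 h, 7412 to 9142 at 24 h and 14402 to 18160 at 48 h. Of the 15, 10 to 12 were above the array median in liver and 7 to 10 at 48 h. Of the 14 that were tested, 3 rose and 7 fell against liver both at 24 h (median log2 change -1.73) and at 48 h (-1.37), and 5 rose and 0 fell from 4 h to 24 h. The sum of 10 muscle markers, of which Des, Acta2 and Tagln are also stellate markers, was 12103 to 23043 in liver and 14224 to 18271 at 0 h on the 41 arrays. It was 11726 to 13716 at 4 h, 10790.4 to 13350 at 24 h and 17488 to 19375 at 48 h. Of the 5 that were tested, 0 rose and 2 fell against liver at 4 h, 2 rose and 2 fell at 24 h, and 2 rose and 1 fell at 48 h. The sum of 6 cholangiocyte markers was 1196 to 1263 in liver and 1048 to 1165 at 0 h on the 41 arrays. It was 1972 to 3255 at 4 h, 1691 to 1961 at 24 h and 2305 to 3239 at 48 h, with 1 or 2 of the 6 above the array median at any time. The summed stellate signal was thus higher at 24 h and 48 h than at 4 h, as were Hspb1 and Cryab, and it was also high in liver, where both genes were low. The cholangiocyte sum was higher in all cultures than in liver, as were Hspb8 and Hsph1. Of the 3 cholangiocyte markers tested, 1 rose and 1 fell against liver at each culture time. The median log2 changes were -0.66 at 4 h, 0.77 at 24 h and 0.03 at 48 h. The part of these cell types in the change was not tested.

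Hsph1 encodes HSP110, which resets HSP70 by nucleotide exchange. Its signal was 1969.9, 1575 and 1567 in liver, 2353, 1792 and 1672 at 0 h and 3522, 2876 and 2296 at 4 h. At 24 h it was 3483, 3356 and 2549, and at 48 h 3039, 2470 and 2174. The cultures lay above the livers at every time, and rat 1 was the highest in each group. Hsph1 rose 1.68-fold at 4 h (log2 0.75 ± 0.21 SE, adjusted p = 0.00948), 1.83-fold at 24 h (0.00375) and 1.50-fold at 48 h (0.0328). The first 2 calls were kept whichever sample was left out but lost without rat 2 (adjusted p = 0.122 and 0.0942). The call at 48 h was lost without any of the 3 rats (up to 0.209), after quantile normalization (0.0747) and with the actin covariate (0.0636). It was also lost without the liver of rat 2 or 3 or the 48 h sample of rat 1 or 2 (adjusted p up to 0.123). The rise of 0.57 from 0 h to 4 h (adjusted p = 0.0419, overlapping groups) was lost in 7 of the 15 leave-outs (up to 0.160). With the rat as a block the adjusted p against liver was 0.000273 at 4 h, 8.59e-05 at 24 h and 0.00135 at 48 h. From 0 h to 4 h it was 0.00201, and the signal rose in all 3 rats in each of these comparisons.

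Dnajb1 encodes the HSP40 partner that sets the HSP70 cycle going. Its signal was 1755, 1614 and 1109 in liver, 1855, 1582 and 2603 at 0 h, 2136, 1688 and 1590.2 at 4 h, 2255, 2112 and 1682 at 24 h and 2032, 1623 and 1563 at 48 h. The groups overlapped liver, and the log2 differences of 0.43, 0.29, 0.45 and 0.24 did not pass the test (adjusted p = 0.439, 0.310, 0.116 and 0.402). A second, dimmer probe set of the gene gave another picture. There the signal was 487, 662 and 424 in liver, 1428, 1268 and 1489 at 4 h and 1811, 1443 and 1364 at 24 h, with no overlap. With the mean of both probe sets the rises were 0.86, 1.01 and 0.75 at 4 h, 24 h and 48 h (adjusted p = 0.00921, 0.00339 and 0.0183), and with median centring of every array those of the brighter probe set were 0.75, 0.87 and 0.63 (0.0149, 0.00479 and 0.0271). Whether Dnajb1 rose therefore depends on the probe set and the scaling.

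Hspb8 and Hsph1 also have a dimmer probe set, which was not tested on its own. For Hspb8 its group means were 287 in liver, 436 at 0 h, 2093 at 4 h, 2077 at 24 h and 1725 at 48 h, or 2.87, 2.85 and 2.59 above liver on the log2 scale in the cultures, against 2.12, 1.83 and 1.58 for the brighter one. It was thus up by more, and level from 4 h to 24 h. For Hsph1 the means were 341, 319, 584, 636 and 574, with changes from liver of -0.09 at 0 h, where the brighter probe set had 0.18, and of 0.78, 0.90 and 0.75 in the cultures.

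**Figure D3:**
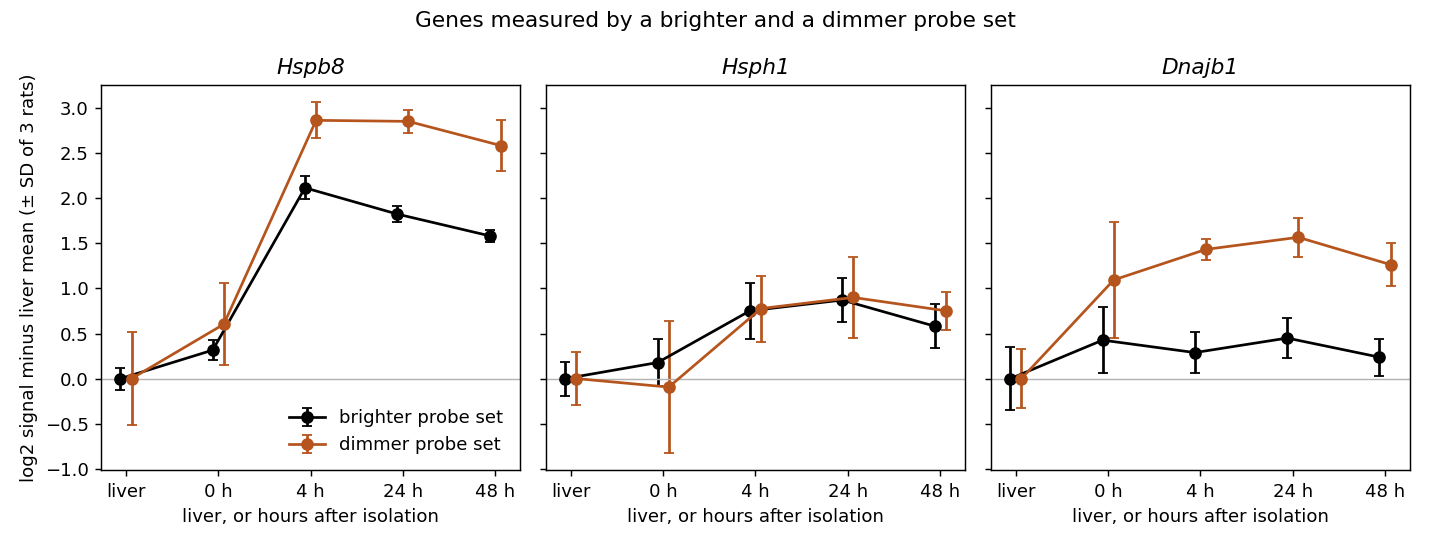
Log2 signal minus the liver mean (± SD of 3 rats) in liver and at 0, 4, 24 and 48 h for the brighter and the dimmer probe set of Hspb8, Hsph1 and Dnajb1. At 24 h the dimmer probe set lies above the brighter one by 1.03 for Hspb8, 0.03 for Hsph1 and 1.12 for Dnajb1, and at 0 h the Hsph1 pair lies on either side of 0.

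Hspd1 (HSP60) and Hspe1 (HSP10) form the mitochondrial chaperonin and its lid. Hspd1 had signals of 15839.6, 11491 and 17730 in liver, 14376, 14090.2 and 19185 at 0 h and 15892, 16184 and 19658 at 4 h. At 24 h they were 16614, 19079 and 17253, and at 48 h 16396, 17825 and 15106. Every group overlapped liver, and the differences from liver of 0.09, 0.22, 0.25 and 0.15 (SE 0.18) did not pass the test (adjusted p = 0.874, 0.345, 0.265 and 0.514). With median centring the gene rose at 4 h (0.67, adjusted p = 0.0447) and 24 h (0.67, 0.0355) but not at 48 h (0.54, 0.0812), and after quantile normalization at 24 h (0.50, 0.0260) and 48 h (0.52, 0.0216).

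Hspe1 was at 14027, 13562 and 17924 in liver, at 12834, 11938 and 17084.5 at 0 h and at 13817, 12602 and 15108 at 4 h. At 24 h it was 11105, 11954 and 10781, and at 48 h 12040.5, 10716 and 10411. All later cultures lay below every liver. Hspe1 fell by 0.42 on the log2 scale at 24 h (SE 0.16, adjusted p = 0.0495) and by 0.45 at 48 h (0.0366), but with median centring the change was 0.00 at 24 h (adjusted p = 1.00) and -0.06 at 48 h (0.838), and after quantile normalization -0.13 (0.495) and -0.06 (0.772). The call at 24 h was lost on the 41 arrays (-0.39, adjusted p = 0.0632) but kept there with the rat as a block (0.0421, lower in all 3 rats), and it was lost in 13 of the 15 leave-outs (up to 0.192). At 48 h it was kept on the 41 arrays (-0.43, 0.0472) and lost without the liver of rat 3 or the 48 h sample of rat 2 or 3 (up to 0.151). Without any one of the rats neither call was kept (up to 0.250 and 0.215). Although the 2 genes share a promoter region, their levels over the 15 samples had a Pearson r of 0.21.

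Put in order of level, the groups of Hspb8 ran liver, 0 h, 48 h, 24 h and 4 h, and of these neighbours only 0 h and 48 h differed (adjusted p = 4.10e-06). Hspb1 ran 4 h, 0 h, liver, 24 h and 48 h, with a difference only between liver and 24 h. Cryab ran 0 h, 4 h, liver, 24 h and 48 h, with differences from liver to 24 h and from 24 h to 48 h. Hspa1a ran liver, 4 h, 48 h, 24 h and 0 h, with a difference only between liver and 4 h. No neighbours differed for Hsph1, Dnajb1, Hspd1 or Hspe1.

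Genes with the most similar course over the 15 samples were looked up for 5 members, by Pearson r of log2 signals, which share libraries and groups and are given as a description. For Hspa1a these were Jun (0.925), Atf3 (0.830) and Ociad1 (0.761), the first 2 being stress-induced transcription factors, and on the 41 arrays 0.870, 0.818 and 0.778. For Hspb1 they were Cdkn2aipnl (0.984), Tspo (0.982) and Cdc42ep5 (0.981), for Hspb8 Lrrfip1 (0.988), Aimp2 (0.986) and Fam98a (0.983), and for Cryab Slc31a2 (0.990), Mfsd12 (0.985) and Vil1 (0.980). For Hspd1 they were Rpl4 (0.897), Acaca (0.846) and Me1 (0.841). Cdc42ep5 and Vil1 were not among the top 3 on the 41 arrays. Among the members, r was 0.953 for Hspb1 and Cryab, 0.840 for Hspb8 and Hsph1 and 0.636 for Hspa1a and Dnajb1.

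Around these genes stand 111 other chaperones, their partners and the heat shock factors, of which 97 were measured. Some genes stand in several of the lists below, while no gene is repeated among the 97. Against liver, 0 of the 97 passed the test in limma at 0 h (7 at an unadjusted p under 0.05), 30 rose and 13 fell at 4 h, 42 rose and 4 fell at 24 h, and 42 rose and 4 fell at 48 h. Over all genes 16.4% rose and 29.9% fell at 4 h, 23.7% and 23.9% at 24 h, and 25.4% and 22.6% at 48 h, and the counts of the single lists below stand against the same shares. The median log2 change of the 97 was 0.07, 0.14, 0.33 and 0.43 at 0 h, 4 h, 24 h and 48 h, beside -0.08, -0.25, 0.00 and 0.04 for all genes. With median centring, which shifts the median of all genes to 0.30, 0.21, 0.42 and 0.43, the counts were 46 up and 2 down at 4 h, 64 and 2 at 24 h and 62 and 3 at 48 h, where rises made up 68.2%, 74.4% and 75% of the 4224, 5702 and 5759 calls over all genes.

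The cytosolic chaperonin TRiC and prefoldin, which fold actin and tubulin, rose most widely. Of 13 measured genes 8 rose at 4 h, 9 at 24 h and 12 at 48 h, and 0 fell. The mean signal of Cct8 was 1648 in liver and 4158 at 24 h (log2 1.34, adjusted p = 0.000412), Cct2 rose by 1.27 at 24 h (0.000216) and Pfdn4 by 1.38 at 48 h (3.97e-05). Of 19 genes of HSP90 and its co-chaperones, 6 rose and 2 fell at 4 h, 11 rose and 1 fell at 24 h, and 8 rose and 1 fell at 48 h. With median centring 11, 16 and 15 rose and 0 fell. Fkbp5, a co-chaperone of steroid receptors that glucocorticoids induce, went from 355 at 0 h to 3569 at 4 h (log2 3.33, adjusted p = 1.92e-07). Cdc37l1 rose by 1.74 at 4 h against liver (1.29e-05) and Sugt1 by 1.45 at 48 h (2.40e-05).

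Of 27 other HSP40 genes 6 rose and 6 fell at 4 h, and 10 rose and 0 fell at 24 h and at 48 h. With median centring 9 rose and 1 fell at 4 h, 20 rose at 24 h and 17 at 48 h. After quantile normalization 9 rose and 4 fell at 4 h, 11 rose at 24 h and 6 at 48 h. Under that scaling rises made up 42.6%, 53.4% and 53.9% of the 4719, 5089 and 5194 calls over all genes. Dnajb4 went from 459 in liver to 3725 at 48 h (log2 3.02, adjusted p = 5.63e-06) and Dnajc17 from 64.4 to 281 (0.00107), while Dnajc12 fell by 2.18 from 0 h to 4 h (0.000250). Of 11 nucleotide exchange factors and HSP70 partners, 6 rose at 4 h, 4 at 24 h and 4 at 48 h, and 0 fell. Bag3, the partner of Hspb8, went from 760.2 in liver to 1694 at 48 h (log2 1.16, adjusted p = 5.07e-05), and Bag2 rose by 1.80 from 0 h to 4 h (3.50e-06). Of 5 other HSP70 relatives 3 rose at 4 h, among them Hspa4 by 1.00 (adjusted p = 0.00669), 1 at 24 h and 0 at 48 h (2 at an unadjusted p under 0.05). Hspa14 and Hspa13 fell by 1.04 and 0.84 from 4 h to 24 h (adjusted p = 0.0325 and 0.00915).

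The list of other small heat shock proteins went both ways. Of 6 measured, 0 rose and 3 fell at 4 h, 2 rose and 1 fell at 24 h, and 2 rose and 2 fell at 48 h. The 6 include Hspbap1, a binding partner of HSP27 that is counted again among the regulators below. Its rise is among those at 48 h. The 3 falls at 4 h became 1 with median centring. Hspb7, known from heart and muscle, went from 628 in liver to 24.1 at 24 h (log2 -4.70, adjusted p = 1.43e-05), Cryaa fell by 1.78 at 48 h (0.00855) and Hspb11 rose by 1.39 from 4 h to 24 h (5.84e-05). Of 16 other mitochondrial chaperones and proteases, 3 rose and 2 fell at 4 h, 7 rose and 2 fell at 24 h, and 6 rose and 1 fell at 48 h. Clpx, the ATPase part of a matrix protease, went from 7404 in liver to 2234 at 48 h (log2 -1.73, adjusted p = 4.93e-05), while the protease Htra2 rose by 1.03 (0.000246) and the iron-sulfur co-chaperone Hscb rose by 1.63 from 4 h to 24 h (7.36e-06).

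Of 15 other genes known to be induced by heat, 6 rose and 2 fell at 4 h, 7 rose and 1 fell at 24 h, and 6 rose and 0 fell at 48 h. Most of the 15 also stand in the lists above and are counted there, so these counts are not separate from those. With median centring 9, 10 and 10 rose, and on the 41 arrays 7 rose at 48 h. Hmox1, heme oxygenase, went from 425 at 0 h to 10651 at 4 h (log2 4.65, adjusted p = 1.15e-06), and Zfand2a from 299 to 2398 (3.00, 4.01e-06). Serpinh1, the collagen chaperone of the endoplasmic reticulum, went from 697 in liver to 67.7 at 4 h (log2 -3.36, adjusted p = 0.000211). Each of the list genes named here with a value passed the test in the same direction after quantile normalization, with median centring and on the 41 arrays. The array medians lay between 79.4 and 144.9. Below all of them were the group means of Dnajc17 in liver, Hspb7 at 24 h, Cryaa at 48 h and Serpinh1 at 4 h. The size of a log2 change that starts or ends at so low a signal is uncertain.

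**Figure D4:**
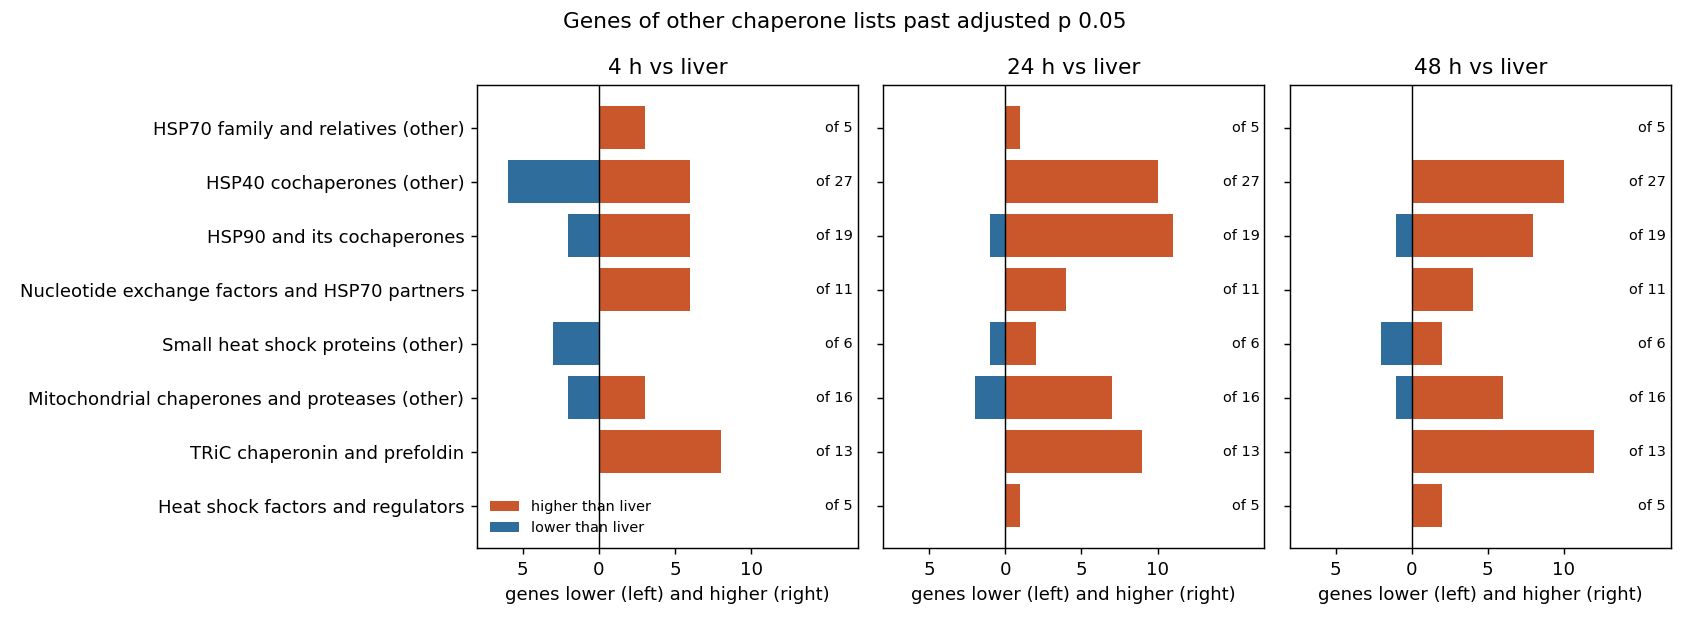
Number of genes of 8 other chaperone lists that were higher or lower than liver at 4, 24 and 48 h (adjusted p under 0.05), with the number measured beside each list. TRiC and prefoldin reach 12 of 13 at 48 h with 0 lower, and HSP40 goes from 6 higher and 6 lower at 4 h to 10 higher and 0 lower at 48 h.

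Of 5 heat shock factors and their regulators 0 passed the test in limma at 4 h against liver (2 at an unadjusted p under 0.05), 1 rose at 24 h and 2 at 48 h. At 4 h, 2 rose and 1 fell after quantile normalization, and 2 rose with median centring. Over all genes, rises made up 42.6% of the 4719 calls with the former and 68.2% of the 4224 with the latter. Hsf1, the main factor of the heat shock response, had mean signals of 301 in liver, 235 at 0 h, 467 at 4 h, 285 at 24 h and 306 at 48 h. It rose by 0.99 from 0 h to 4 h (adjusted p = 0.0105) and fell by 0.71 from 4 h to 24 h (0.0483), the latter missing the threshold on the 41 arrays (0.0505) and with median centring (0.0864). Hsf2, a related factor, ran the other way, with 1437, 1773, 826, 1595 and 1737. It fell by 1.10 from 0 h to 4 h (adjusted p = 0.0138) and rose by 0.95 from 4 h to 24 h (0.0280), the latter missing the threshold with median centring (0.0675). Hspbap1, which binds HSP27, rose by 0.64 at 48 h (0.00674). These are RNA levels, and the activity of a factor was not measured.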

How the data were processed

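The authors hybridized RNA (Trizol, then RNeasy) to Affymetrix RG230-2 arrays and deposited linear MAS5 signal intensity values. Per the labels and methods the tools were MAS 5.0 in the Command Console and the affy package; neither source says which of them made these values. The trimmed mean (2% cut from each end) is 500 in all 43 arrays. The authors left out 1 array of rat 3 at 4 h and 1 of rat 2 at 48 h. Of 31099 probe sets, 20826 list 1 gene, 436 several, 9780 none and 57 are controls.

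Signals were put on the log2 scale and technical arrays of a sample averaged. Genes were tested with limma 3.58.1 (lmFit, eBayes; R 4.3.3) over 15 samples in 5 groups, with Benjamini-Hochberg adjustment over 10649 genes; the script was tested on simulated data. All changes are relative to the trimmed mean of the array. The number of arrays limits the precision.

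By the labels, same-numbered samples came from the same rat, and the differences per rat and the block rely on this. Deviations from the group means correlated with a median r of 0.34 within rats (30 pairs) and -0.18 between rats (60 pairs), and the rat as a block was an alternative. In rats 1 and 2 the liver did not vary with the other samples of the rat (mean r 0.03 and -0.06), unlike in rat 3 (0.26). The liver of rat 1 had a higher mean r with the other samples of rat 2 (0.19), and that of rat 2 with those of rat 1 (0.08). Same-rat pairs with liver had a median r of 0.01, and those without liver 0.42. For rats 1 and 2, differences per rat and block fits against liver thus rest on a pairing that these values do not bear out. Other alternatives were quantile normalization, median centring, an offset of 32, no filter or a filter of 22 arrays, the mean of all probe sets, 1 technical array, fits of 2 groups and leaving out each sample or rat. A fit with the actin ratio as covariate and fits without array 3 of rat 1 in liver and at 0 h were added after seeing the data. The genes and lists were chosen with earlier results of these data known. Genes of the other lists are named by the largest changes past the threshold, up to 3 a list.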

Additional observations from a re-analysis of the deposited data

How the results depend on the processing

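Of the 21 changes of single members that passed the test, all 21 passed in the same direction with the offset of 32, 20 with the stricter filter, the mean of all probe sets or the replicate block, 19 with median centring or 1 technical array, 17 with quantile normalization or fits of 2 groups, 16 without a filter, and 16, 11 and 12 without rat 1, 2 and 3. It was 20 on the 41 arrays, 21 on these with the replicate block, and 14 with the actin ratio as a covariate, both chosen after seeing the data. With the covariate, 4 losses were those of Hspa1a against liver (log2 2.67, 1.38, 1.53 and 1.44, adjusted p = 0.0580, 0.137, 0.203 and 0.264). The cause was not tested.

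The count of members called at 0 h against liver (1) was 0 without a filter, with the stricter filter, with the replicate block, with 2 groups and with the covariate. Over the 7 comparisons tested with the block on all arrays it changed no other member's call, and on the 41 arrays it brought in Hspe1 at 24 h against liver (0.0421) and Hsph1 at 48 h against 0 h (0.0107). The count at 4 h against liver (3) was 5 with median centring. It lost Hspa1a without a filter and with the covariate, and gained Dnajb1 with the mean of all probe sets. The count at 24 h (6) lost Hspa1a and Hspe1 with the covariate. Median centring added Dnajb1 and Hspd1 there and lost Hspe1, and quantile normalization added Hspd1 and lost Hspe1. The mean of all probe sets added Dnajb1 and lost Hspe1. Hspe1 was also lost without a filter, with 2 groups, with 1 technical array and on the 41 arrays. The count from 0 h to 4 h (2) was 1 with quantile normalization, without a filter and with 2 groups. With 1 technical array it gained a fall of Hspa1a (adjusted p = 0.0147), and the count from 4 h to 24 h gained a fall of Hspb8 (0.0414). The count at 48 h (6) was 3 with the covariate. It lost Hspe1 without a filter, with 2 groups and with 1 technical array. Quantile normalization lost Hspe1 and Hsph1 there and added Hspd1. Median centring lost Hspe1 and added Dnajb1, and the mean of all probe sets added Dnajb1. Leaving out 1 sample or rat, the counts ranged from 0 to 1 at 0 h, 1 to 3 at 4 h, 3 to 6 at 24 h and 3 to 6 at 48 h against liver, and from 1 to 3, 2 to 2 and 0 to 1 over the 3 steps in time.

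Signs turned in changes that had not passed the test, except Hspe1 at 24 h. With median centring these were Hspb1 (0.14) and Hspe1 (0.25) at 0 h, Hspb1 (0.00455) and Hspe1 (0.33) at 4 h, Hspe1 at 24 h (1.19e-05) and Hspd1 from 4 h to 24 h (-0.00354). With quantile normalization they were Hspd1 (0.018) and Hspe1 (0.0731) from 24 h to 48 h. Dnajb1 from 0 h to 4 h was 0.10 over all its probe sets. With 1 technical array, Hspd1 from 4 h to 24 h was -0.00731, and Hspa1a and Hspe1 from 24 h to 48 h were 0.13 and 0.0012. Hspe1 from 0 h to 4 h was -0.0721 with the covariate and -0.00794 on the 41 arrays, with and without the block. Leaving out 1 rat or sample, Hspe1 from 0 h to 4 h lay between -0.05 and 0.09 or -0.10 and 0.16. Likewise Hspd1 lay between -0.01 and 0.20 or -0.0921 and 0.22 at 0 h, -0.0906 and 0.34 or -0.03 and 0.28 at 48 h, and -0.062 and 0.15 or -0.02 and 0.14 from 4 h to 24 h. From 24 h to 48 h Hspe1 lay between -0.10 and 0.0332 or -0.09 and 0.01, and Hspa1a between -0.22 and 0.16 or -0.18 and 0.14. From 0 h to 4 h Dnajb1 lay between -0.31 and 0.15 or -0.30 and 0.06, and Hspb1 between -0.52 and 0.0291 or -0.44 and 0.00099. Leaving out 1 sample, Hspe1 at 4 h against liver lay between -0.20 and 0.0012, and Hsph1 from 4 h to 24 h between -0.0379 and 0.27.

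Cryab and Hspa1a, dim in liver, had median technical SDs of 0.18 and 0.20 on the log2 scale, against 0.06 to 0.10 for the other members. The rise of Cryab from 4 h to 24 h was 3.11 with the offset of 32, against 3.43 without it. With 3 rats a group, small changes can be missed.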

Other observations

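Probe sets that list 2 genes stand outside the comparisons and are given as signals with no test. The one that lists Hspa8, the constitutive HSP70, with Haus8l2 had group means of 14209 in liver, 14249 at 0 h, 23684 at 4 h, 23741 at 24 h and 20358 at 48 h. The brighter of the 2 that list Hsp90aa1, the inducible HSP90, with Hsp90aa1-ps17 was at 8838, 7430.3 and 11523 in the livers of rats 1, 2 and 3, at 8865, 10345 and 14526 at 0 h and at 21086, 19567 and 20979 at 4 h. Its means at 24 h and 48 h were 23217 and 20331, and the dimmer one went from 1946 in liver and 2601 at 0 h to 5745, 7349.7 and 6131. In these the 4 h cells of all 3 rats lay above all livers and pellets. The probe set of Hspa1b and Hspa1a had signals of 330.1, 313 and 174 in liver, 493, 1734 and 3761 at 0 h and group means of 982, 719.6 and 585 at 4 h, 24 h and 48 h. As for Hspa1a alone, the pellets were the most spread out.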
